A study of Mus musculus with 12 samples.

Results

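The 41 genes described here build, remodel, break down or supply the choline for membrane phospholipids. They were chosen by name: the enzymes of the Kennedy pathway, the lysophospholipid acyltransferases, phospholipases and choline transporters, with the enzymes that make phosphatidylserine, phosphatidylinositol and cardiolipin. All 41 were found among the 35275 genes of the liver RNA-seq table, 35 reached a mean of at least 0.5 FPKM (fragments scaled by transcript length and library size) over the 12 libraries and were tested, and 6 did not. Livers of WT mice and of Pctp-/- mice, which lack the phosphatidylcholine transfer protein PC-TP in the whole body, were sequenced after feeding with chow or with the MCD diet, which is deficient in methionine and choline. Each of the 4 groups (WT on chow, Pctp-/- on chow, WT on MCD and Pctp-/- on MCD) held 3 mice. The tissue was whole liver, so all of its cell types contribute. The study used male mice, and the age of these mice and the length of feeding were not given in the sources used here.

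Phosphatidylcholine, the main phospholipid of liver membranes and lipoproteins, is made in the Kennedy pathway: choline is phosphorylated, activated to CDP-choline and joined to diacylglycerol, and a parallel branch makes phosphatidylethanolamine from ethanolamine. The liver can also methylate phosphatidylethanolamine to phosphatidylcholine, which draws its methyl groups from methionine. Acyltransferases and phospholipases then exchange the fatty acids of the finished lipids in the Lands cycle, and PC-TP carries phosphatidylcholine between membranes. A diet without choline and methionine withholds the substrates of both routes.

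The libraries held 30486576 to 55179468 uniquely mapped reads. For 8 of 9 measures of read quality and mapping the chow libraries all lay apart from those of MCD, and for 0 did the genotypes lie apart, so diet and read quality cannot be told apart. The labels name no batch. The reads had a GC content of 49.83 to 51.24% in chow libraries, and of 48.42 to 49.16% in MCD libraries. Mouse 1 of WT on chow, of Pctp-/- on chow and of WT on MCD lay farthest from the others of its group (correlations of log2 values up to 0.986, 0.980 and 0.984, against 0.991 or more between the remaining pairs). Pctp itself had 1.21 to 2.65 FPKM in WT and 0.330 to 0.566 FPKM in Pctp-/- livers on chow, and 3.61 to 7.90 and 0.156 to 0.329 FPKM on MCD. The groups did not overlap on either diet, and the difference on the log2(FPKM + 1) scale was -1.07 (SE 0.23, adjusted p = 0.15 from limma) on chow and -2.33 (SE 0.23, adjusted p = 0.000624) on MCD.

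In WT livers on chow the level of the 41 genes covered several orders of magnitude. Pcyt2, whose enzyme makes CDP-ethanolamine, was the highest at 424 ± 26.1 FPKM (SD, n = 3). Etnk2, the ethanolamine kinase one step earlier, followed at 72.4 ± 17.4 FPKM, and Pcyt2 was 4.49 to 9.44 times Etnk2 within each chow library. The matching genes of the choline branch were lower: Chka and Chkb, the choline kinases, had 17.8 ± 7.31 and 12.02 ± 0.971 FPKM, and Pcyt1a, which makes CDP-choline in the rate-limiting step of that branch, had 15.8 ± 0.631 FPKM.

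Among the remodeling genes, Pla2g12b, a secreted phospholipase family member without catalytic activity that is needed for lipoprotein secretion, and Lpcat3, which puts polyunsaturated fatty acids onto lysophosphatidylcholine, stood at 46.6 ± 2.60 and 46.3 ± 1.73 FPKM. Of the choline transporter-like genes Slc44a1 was the highest at 9.94 ± 2.69 FPKM. The 6 genes under the 0.5 FPKM mean were Pcyt1b (the second CDP-choline enzyme), the acyltransferases Lpcat4, Mboat1 and Mboat2, the CDP-diacylglycerol synthase Cds1, and Slc44a4. Mboat2 was listed at 0 in most libraries. For 25 of the 41 genes the annotation places another gene on top of part of the locus (GENCODE M21, GRCm38), and for 9 of them on the same strand. The strand setting of the counting is not given in the sources used here, so reads of such pairs (Chpt1 with Sycp3, Cept1 with Dennd2d and Dram2, Mboat7 with Tsen34, Lpcat3 with Emg1) may be shared.

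**Figure D1:**
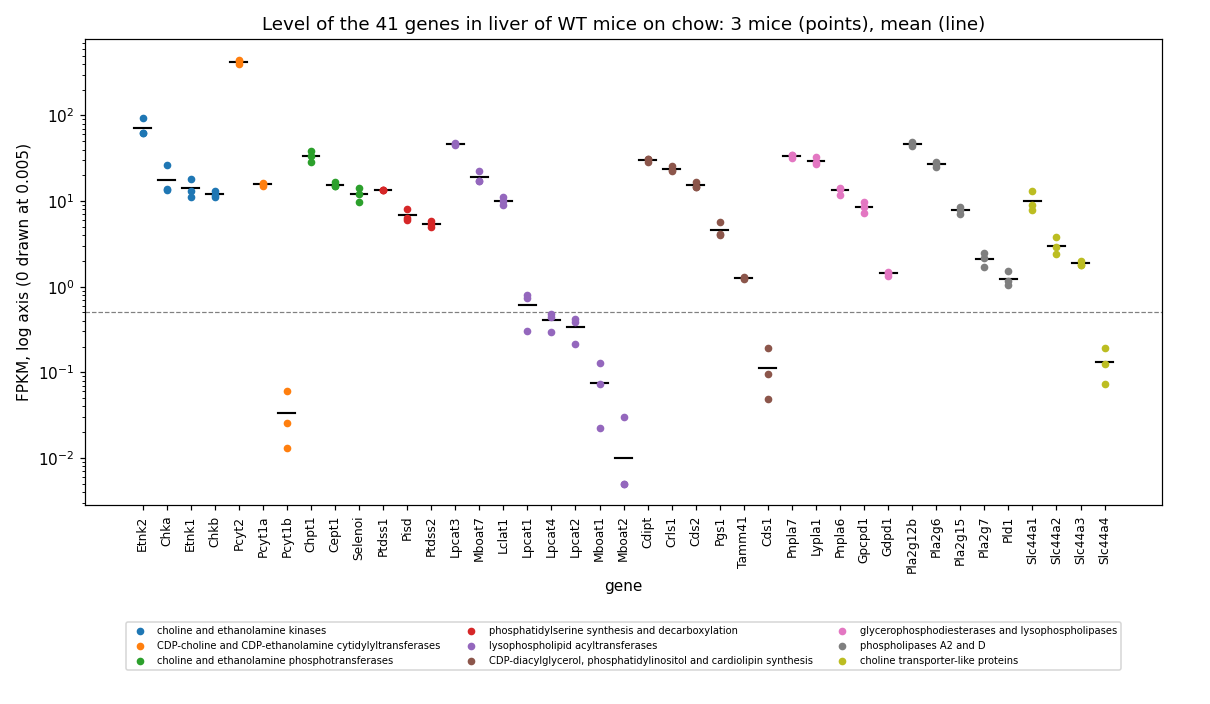
FPKM of each of the 41 genes in the 3 WT livers on chow (points, log axis) with their mean (line), colored by role, and the 0.5 FPKM limit that was applied to the mean over all 12 libraries (dashed). Values of 0 are drawn at the bottom. Pcyt2 stands above all others at a mean of 424 FPKM.

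The question put to the diet was which of these genes moved when choline and methionine were withheld. In WT livers 22 of the 35 tested genes had an adjusted p under 0.05 (limma on log2(FPKM + 1) over all 12466 tested genes), 14 higher and 8 lower on MCD. That is 62.9% of the genes, beside 57.0% of all tested genes that were called in the same contrast, with 34.5% of all genes called higher and 22.5% lower. In Pctp-/- livers 14 were called, 7 higher and 7 lower, or 40%, beside 50.3% of all tested genes (26.0% higher and 24.4% lower). The chow and MCD groups did not overlap for 24 of the 35 genes in WT and for 19 in Pctp-/-, beside 63.7% and 59.7% of all tested genes. The median difference of the 35 genes was 0.04 in WT and -0.11 in Pctp-/- on the log2 scale, beside medians over all tested genes of 0.109 and 0.038.

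How the WT calls divided changed when the libraries were rescaled: 14 higher and 8 lower on the deposited scale became 11 and 11 with quantile normalization, 9 and 12 with median-of-ratios scaling and 10 and 8 with a common total for each library. Median-of-ratios scaling moved the median of all genes in WT from 0.109 to -0.001. In Pctp-/- the 7 and 7 became 7 and 7, 5 and 8, and 5 and 7 under the same scalings. The 6 largest rises and 6 largest falls in WT, given mouse by mouse below, kept their direction and their call in WT under all 3.

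Both genotypes shared 12 of the calls, all in the same direction: Cept1, Lclat1, Lpcat3, Lypla1, Pisd and Pla2g7 rose, and Chpt1, Mboat7, Pcyt2, Pla2g6, Pnpla6 and Slc44a3 fell. They make up 54.5% of the calls in WT and 85.7% of the calls in Pctp-/-. Of all tested genes 57.0% and 50.3% were called, and how many of those calls were shared was not counted. Whether these genes share more calls than others was therefore not tested. The WT and the Pctp-/- contrast use different mice, and their differences had a Pearson correlation of 0.85 over the 35 genes, given as a description because the genes share their libraries. Both contrasts also carry the difference in read quality between chow and MCD libraries, so their agreement is not an independent repeat.

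**Figure D2:**
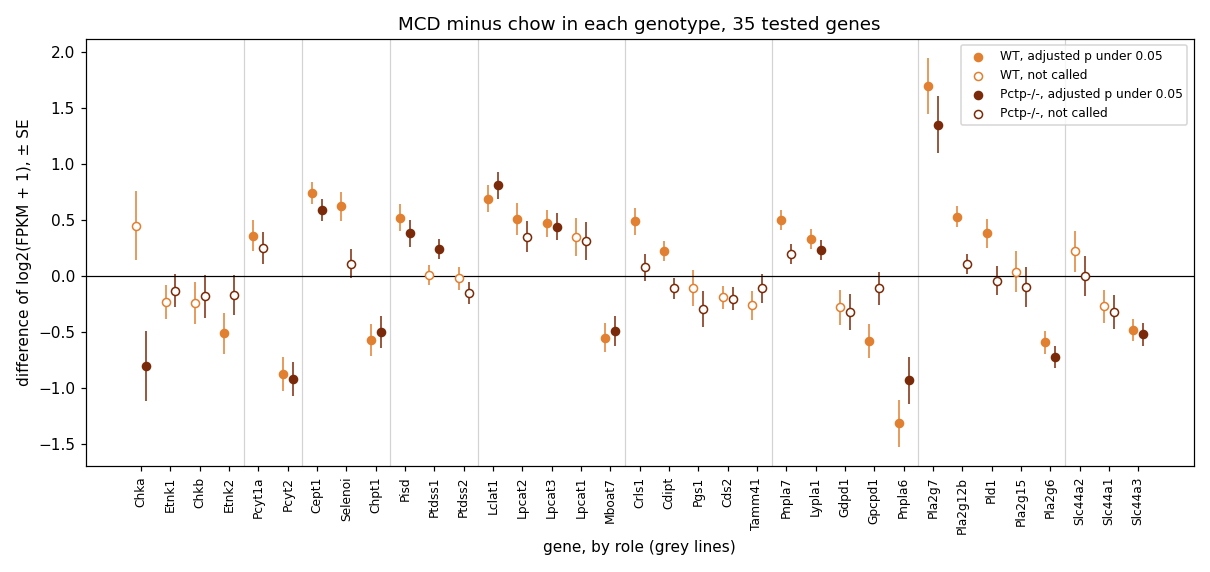
Difference between MCD and chow in log2(FPKM + 1), with its SE, for the 35 tested genes in WT (light) and Pctp-/- (dark) livers, ordered by role, with 3 mice per group. Filled points are called and open points are not, and Pla2g7 (1.69 and 1.35) and Pnpla6 (-1.31 and -0.93) lie at the ends.

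The upstream DNA of 4 genes called in the same direction in both genotypes is shown, chosen as the top 2 rises and top 2 falls in WT whose RefSeq start lies within 30 bases of the GENCODE gene start. The RefSeq table (GRCm38.p6) held a promoter for 35 of the 41 genes, and 200 bases upstream of the start are given 5′ to 3′ on the strand of the gene. Cept1 is at chr3:106547803-106548002 (minus strand), Lclat1 at chr17:73107785-73107984 (plus), Pnpla6 at chr8:3515184-3515383 (plus) and Pla2g6 at chr15:79328391-79328590 (minus). Capitals mark each match to the GC box GGGCGG or the CCAAT box CCAAT on either strand.
Cept1: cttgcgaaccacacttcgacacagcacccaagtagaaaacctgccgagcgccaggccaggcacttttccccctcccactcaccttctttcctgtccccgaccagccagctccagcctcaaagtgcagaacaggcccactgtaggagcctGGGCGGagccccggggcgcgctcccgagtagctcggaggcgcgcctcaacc
Lclat1: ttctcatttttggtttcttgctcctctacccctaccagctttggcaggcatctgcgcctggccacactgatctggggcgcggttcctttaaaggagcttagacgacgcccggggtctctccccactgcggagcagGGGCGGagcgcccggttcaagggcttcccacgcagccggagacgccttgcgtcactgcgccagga
Pnpla6: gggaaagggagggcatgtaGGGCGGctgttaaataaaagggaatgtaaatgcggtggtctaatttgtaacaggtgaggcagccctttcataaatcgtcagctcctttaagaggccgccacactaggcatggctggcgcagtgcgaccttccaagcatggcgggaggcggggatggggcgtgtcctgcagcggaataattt
Pla2g6: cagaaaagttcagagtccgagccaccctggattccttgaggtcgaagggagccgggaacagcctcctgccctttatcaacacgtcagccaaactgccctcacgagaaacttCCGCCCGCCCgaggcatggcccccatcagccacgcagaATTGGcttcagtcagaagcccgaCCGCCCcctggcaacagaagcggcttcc
Cept1, Lclat1 and Pnpla6 each had 1 GC box, and Pla2g6 had 3, of which 2 overlap, with 1 CCAAT box. Of the 5 genes that rose in both genotypes and have a promoter in the table, 4 held a GC box in this window, and so did 4 of the 5 that fell, beside 53.8% of the 11854 promoters of tested genes. The CCAAT box was found in 2 of 5 and 2 of 5, beside 31.3%. The E box CACGTG, the nuclear receptor half-site AGGTCA and the TATA box TATAAA were found in 0 of 5 and 0 of 5, beside 7.25%, 9.03% and 5.12%.

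Among the kinases that open the Kennedy pathway, only Etnk2 was called in WT. It had 61.8, 62.8 and 92.5 FPKM in the 3 WT mice on chow and 47.8, 46.9 and 54.9 FPKM on MCD, a difference of -0.51 on the log2 scale (SE 0.18, adjusted p = 0.0286), with no overlap. The call was lost under 5 of 25 alternatives: without mouse 3 of WT on chow the difference was -0.32 (adjusted p = 0.131). Etnk1 and Chkb had differences of -0.23 and -0.24 in WT and -0.13 and -0.18 in Pctp-/-, and passed the test in neither.

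Chka, the choline kinase that limits the use of choline in many cells, had the largest SE of the 35 genes. Its values were 26.3, 13.8 and 13.4 FPKM in WT on chow, 20.3, 31.9 and 33.7 in Pctp-/- on chow, 26.01, 27.7 and 18.2 in WT on MCD and 22.2, 17.2 and 10.0 in Pctp-/- on MCD. Mouse 1 of WT on chow, a library that stands apart, was the highest of its group, and all 4 groups overlapped with another. On MCD the difference was 0.45 (SE 0.31, adjusted p = 0.229) in WT and -0.80 (SE 0.31, adjusted p = 0.0475) in Pctp-/-, and the call in Pctp-/- was lost under 12 of 25 alternative settings. Chka was one of the 2 genes called in Pctp-/- and not in WT.

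Of the tested genes for enzymes that make CDP-choline and CDP-ethanolamine, Pcyt2 fell in both genotypes, and Pcyt1a was called in WT only, where it rose. Pcyt2 had 395, 434 and 444 FPKM in WT on chow and 211, 266 and 224 on MCD, and 309, 442 and 478 in Pctp-/- on chow and 208, 199 and 233 on MCD. Every MCD liver was below every chow liver, and mean FPKM fell by 45.0% in WT and by 48.0% in Pctp-/- (log2 differences of -0.87 and -0.92, SE 0.15 each, adjusted p = 0.000406 and 0.000332). With a correction for GC content and transcript length the differences were -0.42 and -0.35, still called.

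Pcyt1a rose in WT from 15.8 ± 0.631 to 20.7 ± 3.14 FPKM (log2 difference 0.36, SE 0.14, adjusted p = 0.0369). This call was lost under 10 of 25 alternatives, among them every rescaling and the correction for GC content and length. Its difference of 0.25 in Pctp-/- was not called. The ratio of Pcyt2 to Pcyt1a ranged from 15.4 to 34.8 in chow libraries and from 8.76 to 13.2 in MCD libraries. This ratio, like those that follow, does not depend on the scaling between libraries, was picked after the values were seen and is given without a test. It is not corrected for GC content and transcript length, on which it can still depend.

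The phosphotransferases, which join the activated headgroup to diacylglycerol, split in direction. Cept1, which makes phosphatidylcholine and phosphatidylethanolamine, had 16.9, 15.1 and 14.9 FPKM in WT on chow and 26.4, 25.9 and 27.8 on MCD, and 17.5, 15.96 and 21.1 in Pctp-/- on chow and 27.1, 27.7 and 28.3 on MCD. The diets did not overlap in either genotype. The rise was 0.74 in WT (SE 0.10, adjusted p = 7.3e-05) and 0.59 in Pctp-/- (SE 0.10, adjusted p = 0.000481), and became 0.40 and 0.25 with the correction for GC content and length, where Pctp-/- was no longer called (adjusted p = 0.0533).

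Chpt1, which makes phosphatidylcholine only, fell. It had 38.7, 28.4 and 33.5 FPKM in WT on chow and 18.8, 25.3 and 22.4 on MCD, and 38.9, 33.8 and 36.4 in Pctp-/- on chow and 21.7, 25.8 and 29.1 on MCD. No MCD liver reached its chow group, and the difference was -0.57 in WT (SE 0.14, adjusted p = 0.00435) and -0.50 in Pctp-/- (SE 0.14, adjusted p = 0.0111). The correction for GC content and length gave -0.93 and -0.91, while the WT call was lost without the 3 libraries that stand apart (-0.36, adjusted p = 0.0523) and the Pctp-/- call without mouse 1 of Pctp-/- on MCD (adjusted p = 0.0541). The ratio of Chpt1 to Cept1 ranged from 1.73 to 2.28 in chow and from 0.711 to 1.03 in MCD libraries, so Chpt1 was the higher of the pair in every chow liver.

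Selenoi, the ethanolamine phosphotransferase, had 14.2, 9.87 and 12.2 FPKM in WT on chow and 18.2, 20.7 and 18.0 on MCD. The groups did not overlap, with a rise of 0.62 (SE 0.13, adjusted p = 0.00166), which was 0.37 with the correction for GC content and length. In Pctp-/- the values were 15.97, 13.02 and 12.5 on chow and 16.3, 14.03 and 14.6 on MCD, which overlapped, and the difference of 0.11 (SE 0.13, adjusted p = 0.497) was not called. The difference between the genotypes in this response was -0.51 (95% interval -0.91 to -0.10, adjusted p = 0.229) and did not pass the test.

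Phosphatidylserine is made from phosphatidylcholine by Ptdss1 and from phosphatidylethanolamine by Ptdss2, and Pisd turns it into phosphatidylethanolamine in mitochondria. Pisd had 6.41, 6.09 and 7.995 FPKM in WT on chow and 10.3, 10.1 and 9.96 on MCD, and 5.75, 6.37 and 6.39 in Pctp-/- on chow and 9.63, 7.16 and 8.41 on MCD. It was higher in every MCD liver than in any chow liver of the same genotype, by 0.52 in WT (SE 0.12, adjusted p = 0.00272) and by 0.38 in Pctp-/- (SE 0.12, adjusted p = 0.0172), and the Pctp-/- call was lost without mouse 1 of Pctp-/- on MCD and without the 3 libraries that stand apart. With the correction for GC content and length the Pctp-/- difference was 0.66. Ptdss1 was called in Pctp-/- alone (0.24, SE 0.09, adjusted p = 0.0463), a call lost under 15 of 25 alternatives, with a difference of 0.01 in WT. Ptdss2 had differences of -0.02 and -0.15 and was not called.

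**Figure D3:**
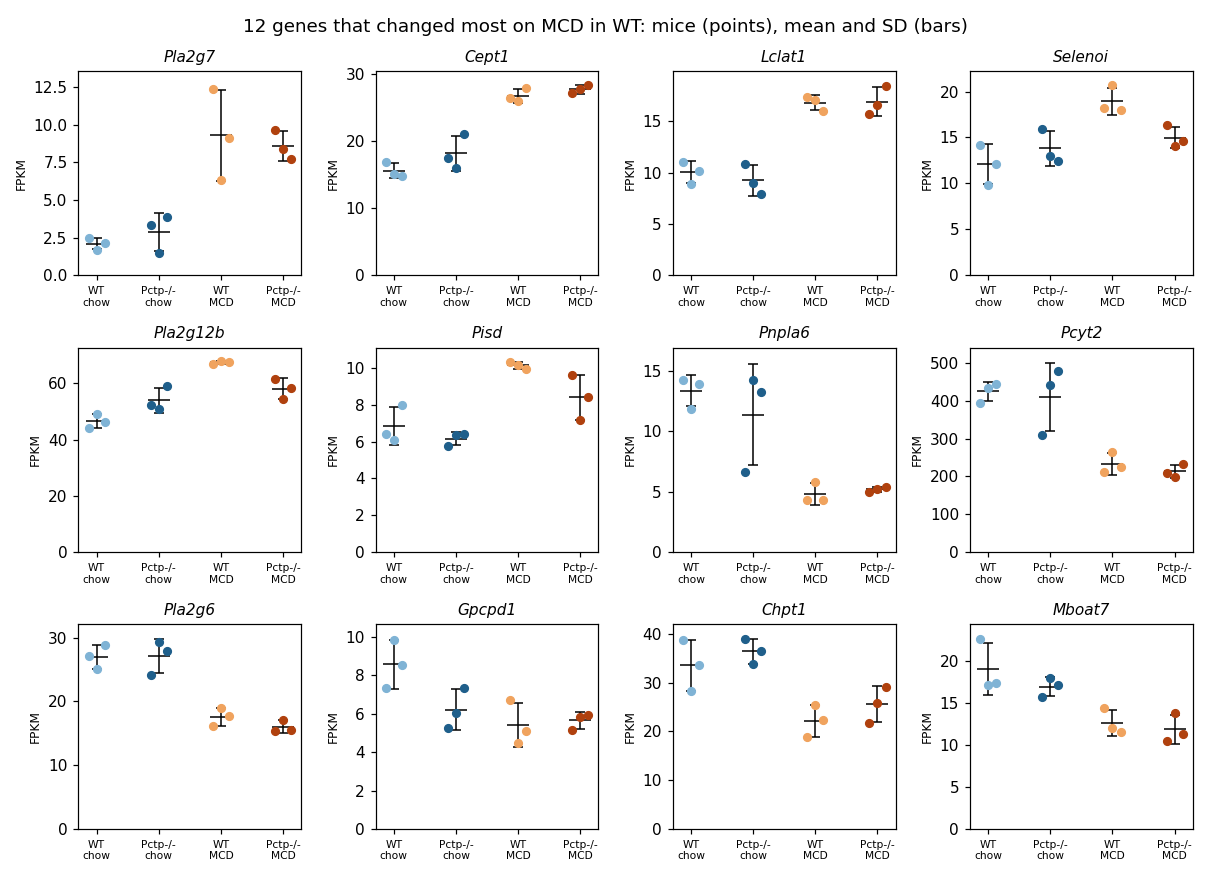
FPKM in each mouse for 12 genes, the top 6 rises and top 6 falls on MCD in WT among called genes whose groups did not overlap, in WT and Pctp-/- livers on chow and MCD, with mean and SD as bars and 3 mice per group. Pnpla6 and Pcyt2 were lower in every MCD liver than in every chow liver, and Cept1 and Lclat1 were higher.

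Of the 5 tested lysophospholipid acyltransferases, which put fatty acids back onto lysophospholipids, 4 were called in WT and 3 in Pctp-/-, beside 57.0% and 50.3% of all tested genes. Lclat1, which acylates lysocardiolipin and lysophosphatidylinositol, had 11.1, 8.90 and 10.1 FPKM in WT on chow and 17.3, 17.1 and 15.99 on MCD, and 10.8, 8.95 and 7.90 in Pctp-/- on chow and 15.7, 16.6 and 18.4 on MCD. All 6 MCD livers lay above all 6 chow livers, with rises of 0.69 (SE 0.12, adjusted p = 0.000355) and 0.81 (SE 0.12, adjusted p = 0.000141). Lpcat3 rose from 46.3 ± 1.73 to 64.5 ± 6.10 FPKM in WT and from 47.5 ± 6.33 to 64.9 ± 8.47 FPKM in Pctp-/- (log2 differences 0.47 and 0.44, SE 0.12 each, adjusted p = 0.00534 and 0.00833), and the WT call was lost with median-of-ratios scaling (adjusted p = 0.0755).

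Mboat7, which adds arachidonic acid to lysophosphatidylinositol, went the other way. It had 22.6, 17.2 and 17.4 FPKM in WT on chow and 14.4, 11.98 and 11.5 on MCD, and 15.7, 18.0 and 17.2 in Pctp-/- on chow and 10.5, 13.8 and 11.3 on MCD. The diets did not overlap, and the differences were -0.55 (SE 0.13, adjusted p = 0.00365) and -0.49 (SE 0.13, adjusted p = 0.00878). With the correction for GC content and length both calls were lost (-0.34, adjusted p = 0.057, and -0.20, adjusted p = 0.273).

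Lpcat2, which makes platelet-activating factor in inflammatory cells, and Lpcat1 were near the lower limit of detection. Lpcat2 rose in WT from 0.342 ± 0.112 to 0.910 ± 0.146 FPKM (log2 difference 0.51, SE 0.14, adjusted p = 0.00753), having reached the mean of 0.5 FPKM through its MCD libraries, and its difference of 0.35 in Pctp-/- was not called (adjusted p = 0.0546). With a pseudocount of 0.1 in place of 1 the rise in WT was 1.22. Lpcat1 had 0.610 ± 0.266 and 1.06 ± 0.453 FPKM in WT and was not called in either genotype.

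In the branch through CDP-diacylglycerol the called genes were Crls1, the cardiolipin synthase, and Cdipt, the phosphatidylinositol synthase, both in WT only. Crls1 rose from 23.7 ± 1.58 to 33.7 ± 2.11 FPKM in WT (0.49, SE 0.12, adjusted p = 0.00342, or 0.31 with the correction for GC content and length) and had a difference of 0.08 in Pctp-/- (adjusted p = 0.576). The rise of Cdipt in WT was 0.22 (SE 0.09, adjusted p = 0.0466), and this call was lost under 15 of 25 alternatives. With the correction for GC content and length its rise in WT was 0.47, and its difference in Pctp-/- turned from -0.11 to 0.23 and was called (adjusted p = 0.0407). Cds2 and Tamm41, which make CDP-diacylglycerol in the endoplasmic reticulum and in mitochondria, and Pgs1, which makes the precursor of phosphatidylglycerol, had differences of -0.29 to -0.11 in the 2 genotypes and were not called.

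The lysophospholipases and glycerophosphodiesterases, which strip phosphatidylcholine down to glycerophosphocholine and free its choline, held the largest fall. Pnpla6, or neuropathy target esterase, removes fatty acids from phosphatidylcholine and its lyso form. It had 14.3, 11.9 and 13.95 FPKM in WT on chow and 4.35, 5.84 and 4.28 on MCD, and 6.63, 14.3 and 13.3 in Pctp-/- on chow and 4.98, 5.25 and 5.37 on MCD. All MCD livers were below all chow livers, with mouse 1 of Pctp-/- on chow, a library that stands apart, closest to them. Mean FPKM fell by 63.9% in WT (log2 difference -1.31, SE 0.21, adjusted p = 0.000277) and by 54.3% in Pctp-/- (-0.93, SE 0.21, adjusted p = 0.00334).

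Its relative Pnpla7, which makes glycerophosphocholine from lysophosphatidylcholine in liver, rose in WT from 33.9 ± 1.55 to 48.6 ± 5.68 FPKM (0.50, SE 0.09, adjusted p = 0.000749), and in Pctp-/- had a difference of 0.20 (adjusted p = 0.0957). The ratio of Pnpla6 to Pnpla7 ranged from 0.193 to 0.444 in chow and from 0.0823 to 0.135 in MCD libraries.

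Gpcpd1, which splits glycerophosphocholine, had 7.31, 9.85 and 8.51 FPKM in WT on chow and 6.69, 4.47 and 5.08 on MCD. The groups did not overlap and the difference was -0.58 (SE 0.15, adjusted p = 0.00582). In Pctp-/- the values were 5.24, 6.04 and 7.33 on chow and 5.14, 5.85 and 5.95 on MCD, which overlapped (-0.11, SE 0.15, adjusted p = 0.576). With the correction for GC content and length the differences were -0.78 in WT and -0.40 in Pctp-/- (adjusted p = 0.0734). Lypla1, a lysophospholipase and protein depalmitoylase, rose by 0.33 in WT (adjusted p = 0.00757) and by 0.23 in Pctp-/- (adjusted p = 0.0464), but the correction for GC content and length turned both (-0.03 and -0.13, neither called). Gdpd1, a lysophospholipase D, was not called (-0.28 and -0.32), but passed the test in both genotypes with that correction (-0.49, adjusted p = 0.0244, and -0.57, adjusted p = 0.0137).

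Among the phospholipases, Pla2g7 showed the largest rise of the 35 genes in both genotypes. It encodes the platelet-activating factor acetylhydrolase, an enzyme that circulates in plasma and is made by macrophages. Its values were 2.47, 1.71 and 2.15 FPKM in WT on chow and 12.4, 6.35 and 9.12 on MCD, and 3.37, 1.46 and 3.86 in Pctp-/- on chow and 9.67, 8.37 and 7.71 on MCD. Every MCD liver was above every chow liver, and the differences were 1.69 in WT (SE 0.25, adjusted p = 0.000139) and 1.35 in Pctp-/- (SE 0.25, adjusted p = 0.000834).

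Markers of some other liver cells rose on MCD as well. Beside the counts of risen markers below stand 34.5% of all tested genes called higher in WT and 26.0% in Pctp-/-. Called lower were 22.5% and 24.4%. The summed level of 12 macrophage markers was 74.4 to 124 FPKM in WT and 64.9 to 175 FPKM in Pctp-/- on chow, and 305 to 626 and 334 to 423 FPKM on MCD. Of its 11 tested genes 10 rose in WT and 7 in Pctp-/-, and Ccr2 was under the limit. Of these, Gpnmb, Trem2 and Itgax reached the mean of 0.5 FPKM through the MCD libraries alone, so that they had to differ, and of the other 8 genes 7 rose in WT and 4 in Pctp-/-. The part of the macrophage share in the rise of Pla2g7 and Lpcat2 was not tested. In whole liver more cells of a type and more RNA per cell cannot be told apart, nor can fewer cells and less RNA per cell.

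Of 10 stellate cell and fibroblast markers 5 rose in WT and 4 in Pctp-/- (sums of 34.97 to 64.4 FPKM on chow and 143 to 212 FPKM on MCD), with Timp1 tested through its MCD libraries alone. Most of the sum was Dcn, at 23.02 to 42.3 FPKM on chow and 114 to 155 FPKM on MCD, and the other 9 genes summed to 11.95 to 26.2 and 24.3 to 56.6 FPKM. Of 7 tested lymphocyte and neutrophil markers 4 and 3 rose (sums of 1.86 to 8.47 FPKM on chow and 12.2 to 32.4 FPKM on MCD), and without the 3 tested through their MCD libraries alone (Cd3g, Nkg7 and Csf3r) 3 and 3 of 4 rose. Of 8 endothelial markers 2 and 0 rose, and of 5 tested cholangiocyte markers 1 rose in WT and 2 fell in Pctp-/-. All 10 hepatocyte markers were tested, with sums of 43990 to 50140 FPKM on chow and 57310 to 78140 FPKM on MCD. Within that list Alb rose in both genotypes, and 5 genes fell in WT and 4 in Pctp-/-. On MCD 0 of 10 hepatocyte and 0 of 11 tested macrophage markers were called between the genotypes, beside 0.818% of all tested genes. The hepatocyte sums on MCD did not overlap, at 57310 to 64190 FPKM in WT and 72420 to 78140 FPKM in Pctp-/-. In each of these lists 2 markers had genotype groups without overlap on MCD, beside 26.6% of all tested genes.

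**Figure D4:**
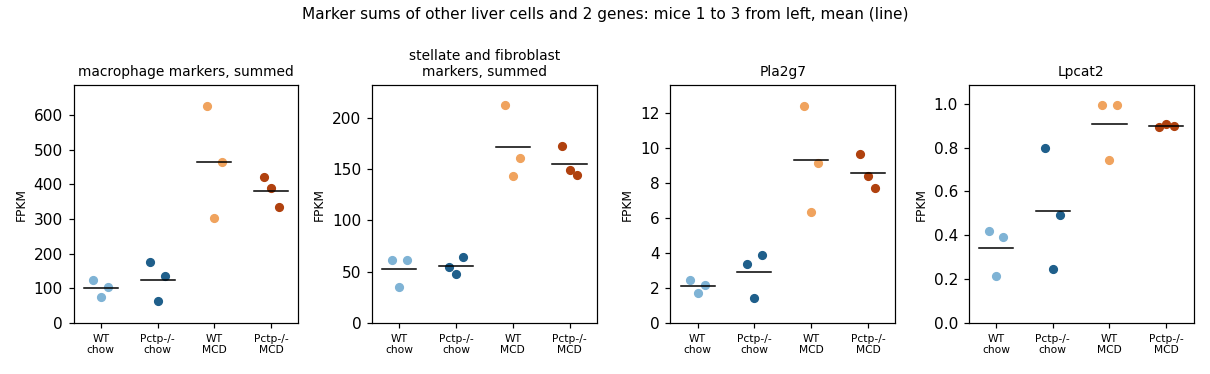
Summed FPKM of the macrophage and the stellate cell and fibroblast markers, and FPKM of Pla2g7 and Lpcat2, in each of 3 mice per group (points, mice 1 to 3 from left) with the mean (line). The macrophage sum lay between 64.9 and 175 FPKM on chow and between 305 and 626 FPKM on MCD.

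Pla2g6, a calcium-independent phospholipase A2, fell. It had 27.1, 25.02 and 28.8 FPKM in WT on chow and 16.2, 19.0 and 17.7 on MCD, and 24.2, 29.4 and 27.9 in Pctp-/- on chow and 15.3, 17.2 and 15.5 on MCD. The diets did not overlap, with differences of -0.59 (SE 0.10, adjusted p = 0.00036) and -0.72 (SE 0.10, adjusted p = 0.000101). The correction for GC content and length reduced them to -0.22 (adjusted p = 0.061) and -0.25 (adjusted p = 0.043).

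Pla2g12b rose in WT from 44.1, 49.2 and 46.4 FPKM on chow to 67.0, 67.9 and 67.7 on MCD (0.53, SE 0.09, adjusted p = 0.000254). In Pctp-/- it had 52.2, 50.8 and 59.0 FPKM on chow and 61.6, 54.3 and 58.4 on MCD, which overlapped, and the difference of 0.11 (SE 0.09, adjusted p = 0.327) was not called. The ratio of Pla2g6 to Pla2g12b ranged from 0.464 to 0.622 in chow and from 0.242 to 0.316 in MCD libraries. Pld1, which releases choline from phosphatidylcholine, rose in WT (0.38, SE 0.13, adjusted p = 0.0229), a call lost under 7 of 24 alternatives and a difference of 0.59 with a pseudocount of 0.1, and Pla2g15, a lysosomal phospholipase, was not called.

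Choline enters cells in part through the choline transporter-like proteins. Slc44a3, whose transport role is less clear, fell in WT from 1.87 ± 0.104 to 1.06 ± 0.0757 FPKM (log2 difference -0.48, SE 0.10, adjusted p = 0.00155) and in Pctp-/- from 2.17 ± 0.232 to 1.21 ± 0.115 FPKM (-0.52, SE 0.10, adjusted p = 0.00107), and with a pseudocount of 0.1 the differences were -0.76 and -0.79. Slc44a1, the ubiquitous choline transporter, had 9.94 ± 2.69 and 7.91 ± 0.714 FPKM in WT and 12.4 ± 1.48 and 9.65 ± 0.378 FPKM in Pctp-/- and did not pass the test (-0.27, adjusted p = 0.142, and -0.32, adjusted p = 0.0903). With the correction for GC content and length it passed in both (-0.37, adjusted p = 0.0419, and -0.47, adjusted p = 0.0189). Slc44a2, which also resides in mitochondria, had differences of 0.22 and 0.00 and was not called.

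The comparison of genotypes asked whether these genes respond to the loss of PC-TP. On chow 0 of the 35 genes were called, beside 0.136% of all tested genes, and 4 had an unadjusted p under 0.05 (Chka, Gpcpd1, Pla2g12b and Pld1), or 4 of 35 beside 6.98% of all tested genes. Pctp, the deleted gene, was itself not called on chow although its groups did not overlap. The count of 0 on chow therefore does not show that these genes did not respond. On MCD 0 were called, beside 0.818%, and 4 had an unadjusted p under 0.05 (Cdipt, Pnpla7, Pla2g12b and Selenoi), beside 16.3%. The median difference was 0.03 on chow and -0.06 on MCD, beside 0.006 and -0.0928 over all tested genes. The estimates ran from -0.41 (Gpcpd1) to 0.69 (Chka) on chow and from -0.56 (Chka) to 0.26 (Slc44a1) on MCD, with a median SE of 0.13 on chow.

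The gene with the smallest p on chow was Gpcpd1, with 7.31, 9.85 and 8.51 FPKM in WT and 5.24, 6.04 and 7.33 FPKM in Pctp-/-. The groups overlapped by a single mouse of each, and the difference was -0.41 (95% interval -0.74 to -0.08, adjusted p = 0.552). On MCD it was Cdipt, with 35.8, 36.4 and 33.5 FPKM in WT and 29.8, 26.6 and 29.8 FPKM in Pctp-/-. These groups did not overlap, and the difference was -0.29 (95% interval -0.47 to -0.10, adjusted p = 0.132). After quantile normalization it was -0.19.

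Groups without overlap were found on chow for 4 of the 35 genes and on MCD for 7, beside 10.6% and 26.6% of all tested genes whose groups did not overlap, and none of these passed the test. On chow they were Pla2g12b and Pld1 (higher in Pctp-/-) and Ptdss1 and Gdpd1 (lower), and on MCD Slc44a1 (higher) and Selenoi, Pisd, Ptdss2, Cdipt, Crls1 and Pla2g12b (lower).

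**Figure D5:**
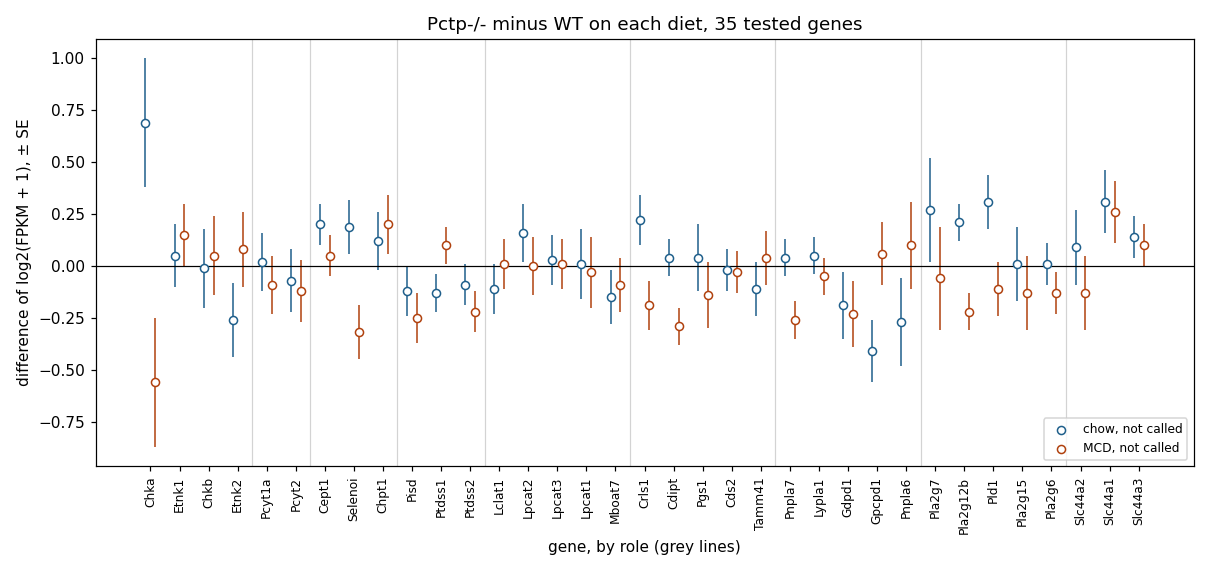
Difference between Pctp-/- and WT in log2(FPKM + 1), with its SE, on both diets for the 35 tested genes, ordered by role, with 3 mice per group. No point is called, and the estimates lie between -0.56 and 0.69.

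The response to the diet was also compared between the genotypes. The difference of the responses was called for 0 of the 35 genes, beside 0.0963% of all tested genes, and 8 had an unadjusted p under 0.05 (Cdipt, Chka, Crls1, Gpcpd1, Pla2g12b, Pld1, Pnpla7 and Selenoi), beside 15.1%. In WT 10 genes were called that were not called in Pctp-/- (Cdipt, Crls1, Etnk2, Gpcpd1, Lpcat2, Pcyt1a, Pla2g12b, Pld1, Pnpla7 and Selenoi), and 2 the reverse (Chka and Ptdss1). The adjusted p of the difference ran from 0.147 to 0.829 over these 12, so none was shown to respond differently. The remaining 11 were called in neither genotype (Cds2, Chkb, Etnk1, Gdpd1, Lpcat1, Pgs1, Pla2g15, Ptdss2, Slc44a1, Slc44a2 and Tamm41). The sign of the estimate was the same in both genotypes for 30 of the 35 genes. The shares of equal signs and of calls in a single genotype over all tested genes were not counted.

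The smallest p of the difference belonged to Pla2g12b (-0.42, 95% interval -0.69 to -0.16, adjusted p = 0.147). Without the 3 libraries that stand apart, 20 of the 35 genes were called on MCD in WT (13 higher, 7 lower) and 19 in Pctp-/- (9 higher, 10 lower), beside 56.5% and 57.4% of all tested genes in the same fit, and 0 in the knockout contrasts on chow and MCD and in the difference, beside 1.29%, 0.794% and 3.36%.

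Other genes of the pathway were read from 4 lists. In the order below, 80%, 71.4%, 64.3% and 36.4% of their tested genes were called on MCD in WT, beside 57.0% of all tested genes. In Pctp-/- the shares were 90%, 35.7%, 42.9% and 36.4%, beside 50.3%. Of 10 genes of phosphatidylethanolamine methylation, choline oxidation and methyl transfer, 4 rose and 4 fell in WT and 5 rose and 4 fell in Pctp-/-. Pemt, which methylates phosphatidylethanolamine to phosphatidylcholine, rose from 348 ± 61.6 to 537 ± 50.6 FPKM in WT (0.64, SE 0.13, adjusted p = 0.00119) and by 0.47 in Pctp-/- (adjusted p = 0.00889). Bhmt, which remethylates homocysteine with betaine, rose by 1.41 and 1.43, and Aldh7a1, which can oxidize betaine aldehyde, fell by 1.69 and 1.61 on the log2 scale. Chdh, the choline dehydrogenase, was not called (-0.13 and -0.29).

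Of 14 tested genes that supply phosphatidate and diacylglycerol, 7 rose and 3 fell in WT and 3 rose and 2 fell in Pctp-/-. Lpin1, a phosphatidate phosphatase, fell by 1.95 in WT (adjusted p = 0.000751) and by 1.10 in Pctp-/- (adjusted p = 0.0258), where the diets overlapped. On chow it had 61.6 ± 11.7 FPKM in WT and 31.5 ± 15.5 FPKM in Pctp-/-. Those groups did not overlap, but the difference was not called (-1.06, adjusted p = 0.47). Gpam, the mitochondrial glycerol-phosphate acyltransferase, was not called on MCD (0.31 and 0.15). Gpat3, an acyltransferase of the same step, was the only gene of this list called between genotypes on MCD. It had 19.2 to 24.2 FPKM in WT and no more than 13.8 FPKM in Pctp-/- (-0.65, adjusted p = 0.0467). Plpp2 of the same list had 20.5 to 34.7 FPKM in WT and 14.1 to 16.5 FPKM in Pctp-/- (-0.72, adjusted p = 0.0533). The genotype groups on MCD did not overlap for 6 of the 14 genes, beside 26.6% of all tested genes.

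Of 14 tested further acyltransferases and lipases, 6 rose and 3 fell in WT and 4 rose and 2 fell in Pctp-/-, with Abhd3, a phospholipase for phosphatidylcholine with medium-length chains, down by 1.26 and 1.30. Of 11 tested choline carriers and phospholipid movers, 3 rose and 1 fell in WT and 2 rose and 2 fell in Pctp-/-. Abcb1a, a drug export pump, rose by 2.17 and 2.11, whereas Abcb4, which moves phosphatidylcholine into bile, was not called (0.13 and -0.40). In the knockout contrasts 0 genes of the first and the third list were called, and Pctp and Gpat3 were the calls of the others, both on MCD. Bhmt of the first list was higher in Pctp-/- on both diets without overlap. Its differences were 0.54 on chow (adjusted p = 0.226 from limma) and 0.56 on MCD (adjusted p = 0.0849). In that list 2 of 10 genes had genotype groups without overlap on chow and 4 on MCD, beside 10.6% and 26.6% of all tested genes. Of all tested genes 0.136% were called on chow and 0.818% on MCD.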

How the data were processed

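RNA-seq was measured in whole liver of 12 mice, grouped by the genotype and diet in the labels. The deposited table, made by the authors, holds FPKM by gene for each library on mm10 (per the submitters' processing notes), and a table of read and mapping statistics, used for depth and quality only. The aligner, the counter and the annotation are not given in the sources used here. No counts per gene were used, so the Wald test of the study was not run. A mean of 0.5 FPKM or more was required, which left 12466 genes, and these were tested with limma 3.58.1 in R 4.3.3 on log2(FPKM + 1), with 1 mean per group, a mean-variance trend and two-sided moderated tests. P-values were Benjamini-Hochberg adjusted over all tested genes, and genes with an adjusted p under 0.05 were called, whatever the size of the change. Differences on this scale understate the change of genes with low FPKM. Exact permutation of 3 against 3 mice cannot go below p = 0.1 and was not used.

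The 41 genes and all gene lists were chosen with earlier results of these data known. Values of every mouse were given for the 6 largest rises and 6 largest falls on MCD in WT among called genes without overlap, and for the gene with the smallest p in each genotype comparison. Positions, overlaps, GC content and length came from GENCODE M21 (GRCm38). Symbols were matched for 34490 of the 35275 identifiers. The correction for GC content and length fitted splines of both to the deviations of each library, for 12401 genes.

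No pair of libraries held identical values. Replicate numbers in the labels number different mice. Of 18 pairs of libraries with the same number, 8 had correlated deviations above 0.1 (range -0.10 to 0.22). Pairs with different numbers were not compared, so these values do not settle whether the numbers pair the mice. No pairing was used in the main fit. The alternatives were the pseudocount (0.1 and 0.5), the FPKM limit, the scaling, the libraries fitted, a replicate block, a fit with no mean-variance trend, a robust fit, a minimum fold change, the GC and length correction, leaving out each library and, chosen after seeing the data, leaving out the 3 libraries that stand apart.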

Additional observations from a re-analysis of the deposited data

Results flagged for a closer look

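Pla2g12b, the inactive secreted phospholipase needed for lipoprotein secretion, had knockout differences of opposite sign on the 2 diets, with no overlap of the groups on either, and neither passed the test. On chow every Pctp-/- liver (50.8 to 59.0 FPKM) was above every WT liver (44.1 to 49.2 FPKM), a difference of 0.21 on the log2 scale (95% interval 0.02 to 0.39, adjusted p = 0.655 from limma). On MCD every Pctp-/- liver (54.3 to 61.6 FPKM) was below every WT liver (67.0 to 67.9 FPKM), a difference of -0.22 (95% interval -0.40 to -0.03, adjusted p = 0.241). The difference of the 2 effects, -0.42, did not pass the test (adjusted p = 0.147, and 0.103 to 0.335 over its 24 alternatives), and its sign was negative in each of them. Of the 35 tested genes it was the only one with opposite signs and no overlap on both diets. It was flagged by this rule, and how many of all tested genes meet the rule was not counted. Groups without overlap were found for 10.6% of all tested genes on chow and for 26.6% on MCD. With median-of-ratios scaling the difference on MCD was -0.11.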

How the results depend on the processing

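In both knockout comparisons and in the difference of the MCD effects 0 of the genes were called under each alternative, leaving out each library included. On MCD, 18 to 22 were called in WT and 11 to 19 in Pctp-/-, other than with a minimum log2 fold change of 1, which left 2 and 1 (against 22 and 14). With the replicate block 21 were called in WT and 13 in Pctp-/-, and 0 in the genotype comparisons. Apart from that minimum, 13 of the 22 calls in WT and 7 of the 14 in Pctp-/- were kept under every alternative that tested them. The GC and length correction ended 5 calls and added 2 in WT, and ended 4 and added 3 in Pctp-/-. Lypla1 reversed with the GC and length correction (-0.03 in WT and -0.13 in Pctp-/-). The cause was not tested.

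Over all tested genes the count of calls moved more: 17 on the knockout on chow (4 to 161 under the alternatives, 161 without the 3 libraries that stand apart, 32 with the replicate block), 102 on the knockout on MCD (19 to 173) and 12 for the difference of the MCD effects (0 to 419, 419 without those 3 libraries and 59 with the block). With a minimum log2 fold change of 1, 1777 were called on MCD in WT and 1343 in Pctp-/-, against 7110 and 6276, and 33 for the knockout on MCD. An FPKM limit of 5, which tests fewer genes, gave 4448 and 4047. With 3 mice per group the median SE of a knockout difference on chow was 0.13 on the log2 scale, and the FPKM values do not give the counting error.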

Other observations

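Pcyt1b, the second gene for a CDP-choline enzyme, was too low to be tested but was ordered by diet: it had 0.0132 to 0.0707 FPKM in the chow livers and 0.0878 to 0.150 FPKM in the MCD livers, with no overlap. This was noticed after its values were seen and has no test. Of the 41 genes, 3 lie on chromosome 11 with Pctp. Gdpd1 is 2.91 Mb from it, Pgs1 28 Mb and Pcyt2 30.6 Mb, and none of them was called between the genotypes on either diet. Gdpd1 was lower in Pctp-/- on chow without overlap (-0.19 on the log2 scale, adjusted p = 0.923 from limma). On MCD its groups overlapped (-0.23, adjusted p = 0.52). A link to its position near Pctp was not tested.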
